A study of Mus musculus with 8 samples.

Results

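The Cyp3a family of mouse liver was followed on 8 arrays, 4 from NZO and 4 from B6 mice. Its members were taken by gene name: the non-control probes whose name was 1 of 9 Cyp3a genes, of 34836 gene names on the array. These 9 genes were selected on their measured levels in NZO and B6 on these arrays, so their strain differences are given as a description: no p is given for them, and their calls in the fit over all probes are only counted. Of the 9, 8 had a probe of their own name and together they had 11 probes. Cyp3a41a had none and was read only by probes that list its transcript beside those of relatives. All 11 probes were well above background on the 4 arrays of at least 1 strain.

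RNA came from whole liver of male mice, 1 array per mouse. NZO mice were NZO/HiBomDife (mice 007, 003, 009 and 011), a polygenic strain that becomes obese and diabetic, and B6 mice were C57BL/6 (mice 011, 010, 015 and 009), a lean strain. Both strains were 6 weeks old and had received a diet with 45% fat, and neither had any other treatment in the labels. Levels are log2 of the processed array signal relative to the 75th percentile of the array, so that 0 is that percentile and 1 unit is a doubling. A level can be compared between mice for 1 probe, not between probes. In whole liver, fewer cells of a type and less RNA per cell cannot be told apart. NZO sequence at the probe sites was not analysed. A mismatch of NZO to a probe therefore cannot be told from a difference in level, at any probe below.

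Cyp3a enzymes are haem-containing monooxygenases of the endoplasmic reticulum that oxidise drugs, steroids and bile acids with electrons from cytochrome P450 reductase. Their genes are induced through the nuclear receptors PXR (Nr1i2) and CAR (Nr1i3). In the mouse, Cyp3a11 is the main adult form of both sexes, Cyp3a41 and Cyp3a44 are known as female-predominant, and Cyp3a16 is known from the fetal and newborn liver. The pituitary pattern of growth hormone is known to set many such sex differences of the liver.

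On GRCm38, 8 of the 9 genes lie side by side on chr5:145345149-146114978, in the order Cyp3a57, Cyp3a16, Cyp3a41b, Cyp3a41a, Cyp3a44, Cyp3a11, Cyp3a25 and Cyp3a59. Cyp3a13 lies apart at chr5:137892933-137925610. Because the family shares much sequence, the probe decides which transcripts are read. The sequences of the coding probes below, from the scanner files, are shown for this reason. The Cyp3a11 probe that starts at base 1104 of its transcript is listed with transcripts of 4 members (Cyp3a11, Cyp3a41a, Cyp3a41b and Cyp3a44), and its capitals mark all 60 bases, which have a single reading frame without a stop. In the Cyp3a59 probe at 1349 the capitals mark the codons of the haem-binding signature common to P450 enzymes. In the Cyp3a57 and Cyp3a16 probes they mark the stop codon, and of the latter the 24 bases up to it are shown.
Cyp3a11 probe at 1104: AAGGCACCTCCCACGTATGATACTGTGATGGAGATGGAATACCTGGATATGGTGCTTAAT
Cyp3a59 probe at 1349: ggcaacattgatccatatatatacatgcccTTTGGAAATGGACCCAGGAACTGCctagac
Cyp3a57 probe at 1529: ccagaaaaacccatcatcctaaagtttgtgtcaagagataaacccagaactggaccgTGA
Cyp3a16 probe at 1574: gatgcagtcataactggagcgTGA

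The strains differed most at the genes known as female-predominant or fetal. The Cyp3a44 probe was detected in NZO only, the Cyp3a41b probe was 45.4-fold higher in NZO and the Cyp3a16 probe 7.18-fold higher, while Cyp3a25 and Cyp3a57 were at 0.546 and 0.509 times the B6 level. By limma with Benjamini-Hochberg adjustment over 27639 probes and a log2 difference of at least 0.7, 4 of the 11 Cyp3a probes were called higher in NZO and 2 lower. Of all probes tested 4.33% were called higher and 5.28% lower. Since the genes were chosen with this contrast known, nothing is read from the comparison of these shares.

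Cyp3a44 encodes a form typical of the female liver. Its probe gave levels of 0.99, 1.06, 2.29 and 1.63 in NZO mice 007, 003, 009 and 011. In B6 mice 011, 010, 015 and 009 it was measured at -5.41, -5.17, -4.80 and -5.44, not well above background in any of them. The lowest NZO level stood far above the highest B6 value. Cyp3a44 was at least 63.5-fold higher in NZO, taking for each B6 array the higher of its own value and the lowest level found well above background on that array. The measured means were 1.49 ± 0.60 (SD, n = 4) and -5.20 ± 0.30 (SD, n = 4). This bound and those below hold for the processed signal. Under normexp background correction, with an offset of 50 added to the signal, the log2 difference was 3.09. It was 3.85 from the deposited table, which holds raw median intensity without background subtraction. Both were below the bound. Low signals keep an added constant or the background in these settings, so their differences are not on the scale of the processed signal.

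The probe named for Cyp3a41b lists the transcripts of Cyp3a41a and Cyp3a41b, so it reads this pair of near-identical genes together. It measured 6.08, 6.48, 6.63 and 6.57 in the NZO mice, in the order above. In B6 it measured 1.02, 0.31, 1.28 and 1.14. All 4 B6 values were above background, and the groups were separated by several log2 units. The means were 6.44 ± 0.25 (SD, n = 4) and 0.94 ± 0.43 (SD, n = 4), a log2 difference of 5.51 (SE 0.23). This probe and that of Cyp3a44 are related: 53 of their 60 bases could be aligned, and 46 of these were identical.

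Cyp3a16, the fetal form, measured 6.16, 6.72, 6.88 and 6.73 in NZO. In B6 it measured 3.82, 3.26, 4.04 and 4.0. No B6 mouse reached the lowest NZO mouse, and B6 was clearly above background. The difference was 2.84 (SE 0.22) on the log2 scale, with means of 6.63 ± 0.32 and 3.78 ± 0.36 (SD, n = 4 each).

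Cyp3a11 was read by 2 probes that did not give the same picture. The probe at 1104, which lists 4 members, measured 6.39, 7.37, 7.44 and 7.18 in NZO and 5.49, 5.14, 5.69 and 5.86 in B6. Its groups did not overlap, and the difference was 1.55 (SE 0.26), or 2.92-fold. The probe at 1939, which lists Cyp3a11 alone, measured 6.39, 6.98, 6.89 and 6.90 in NZO and 6.98, 5.92, 7.05 and 7.18 in B6. Here the strains overlapped, with a difference of 0.0073 (SE 0.28). When 1 mouse was left out, this difference ranged from -0.28, without B6 010, to 0.14. Within each array, the value at 1104 minus that at 1939 was -0.0019, 0.39, 0.54 and 0.28 in NZO and -1.49, -0.78, -1.36 and -1.33 in B6. Every NZO array thus had the higher difference, by 1.54 on average (SE 0.19), which shows unequal change at the probes and not that either transcript stayed the same. How far the relatives listed for the probe at 1104 entered its signal was not tested.

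**Figure D1:**
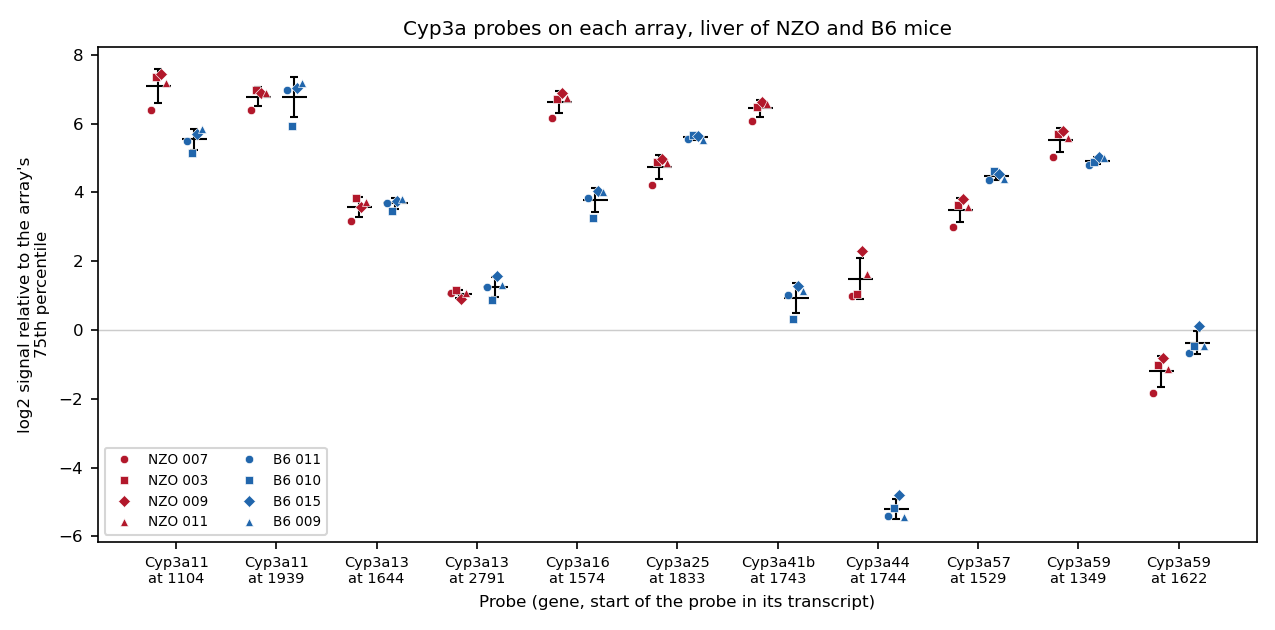
Level of each of the 11 Cyp3a probes on each of the 8 arrays (vertical axis, log2 relative to the array's 75th percentile; red, NZO; blue, B6; black bars, mean ± SD of 4 arrays), with probes ordered by gene. The Cyp3a41b probe lies between 6.08 and 6.63 in NZO and between 0.31 and 1.28 in B6, and the 4 B6 points of Cyp3a44 are not well above background.

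Cyp3a25, a form of the adult liver of both sexes, was lower in NZO. It measured 4.22, 4.88, 4.98 and 4.84 in NZO and 5.56, 5.67, 5.65 and 5.53 in B6. The 4 B6 mice lay close together and above every NZO mouse. The difference was -0.87 (SE 0.17), with means of 4.73 ± 0.35 and 5.60 ± 0.070 (SD, n = 4 each).

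Cyp3a57, a little-studied relative at the other end of the cluster, was lower in NZO too. It measured 3.0, 3.63, 3.80 and 3.57 in NZO and 4.37, 4.61, 4.54 and 4.38 in B6. Again no NZO mouse reached the lowest B6 mouse. The difference was -0.97 (SE 0.18). With slide as a fixed term the strain difference rests on the 1 slide that held both strains, with 1 NZO and 2 B6 mice, here and wherever that setting is given below. Cyp3a25 and Cyp3a57 were at -0.78 and -0.94 there. Neither was called in that setting or by the test of the methods after adjustment.

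The 2 probes of Cyp3a59 went opposite ways. At 1349, over the haem-binding codons, the levels were 5.03, 5.69, 5.79 and 5.59 in NZO and 4.79, 4.87, 5.03 and 4.99 in B6. NZO was higher by 0.60 (SE 0.17), but mouse NZO 007 lay within the B6 range. At 1622 the levels were -1.84, -1.02, -0.82 and -1.13 in NZO and -0.66, -0.46, 0.12 and -0.48 in B6. There NZO was lower without overlap, with a difference of -0.83 (SE 0.25), and the probe did not meet the adjusted threshold. The value at 1349 minus that at 1622 was between 6.61 and 6.87 in NZO and between 4.91 and 5.47 in B6, a strain difference of 1.43 (SE 0.14). No direction is therefore given for Cyp3a59 as a gene.

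Cyp3a13, the form that lies outside the cluster, had the smallest differences beside the Cyp3a11 probe at 1939. Its probe at 1644 measured 3.16, 3.83, 3.58 and 3.72 in NZO and 3.69, 3.45, 3.75 and 3.82 in B6. Its probe at 2791 measured 1.07, 1.16, 0.90 and 1.06 in NZO and 1.26, 0.86, 1.58 and 1.31 in B6. The strains overlapped at both probes. The differences were -0.11 (SE 0.16) and -0.20 (SE 0.16), smaller than or close to their errors. With slide as a fixed term the first was 0.23, so its sign depends on the setting.

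**Figure D2:**
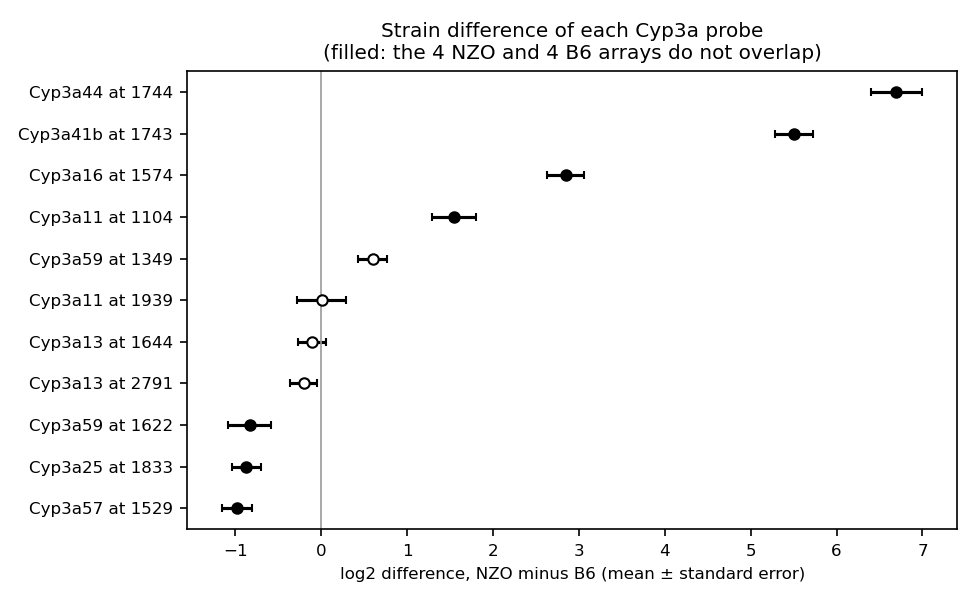
Log2 difference between the strains (horizontal axis, NZO minus B6, mean ± standard error of the limma fit, 4 arrays per strain) for each Cyp3a probe, ordered by size. Filled points are the 7 probes whose groups do not overlap, 4 of them higher and 3 lower in NZO (11.3% and 10.7% of all probes tested). The point of Cyp3a44 is the measured difference. Its bound of 63.5-fold holds for the processed signal only, and log2 differences below it came from normexp (3.09) and the deposited table (3.85).

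Among the 11 probes, the NZO and B6 arrays did not overlap at 7 and overlapped at 4. Of all probes tested, 22.0% did not overlap, and since the genes were chosen on this contrast nothing is read from the comparison. The order of the measured differences ran from Cyp3a44 through Cyp3a41b, Cyp3a16, the shared Cyp3a11 probe and the Cyp3a59 probe at 1349 to the Cyp3a11 probe at 1939 and both probes of Cyp3a13, and then to the Cyp3a59 probe at 1622, Cyp3a25 and Cyp3a57. The first place of Cyp3a44 depends on the setting, since Cyp3a41b stood above it under normexp (5.12 against 3.09) and in the deposited table (5.08 against 3.85). The last 3 probes of the order, at -0.83, -0.87 and -0.97, did not differ from each other beyond their errors of 0.25, 0.17 and 0.18. The probes of Cyp3a11 at 1939 and of Cyp3a13 could not be ordered either.

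**Figure D3:**
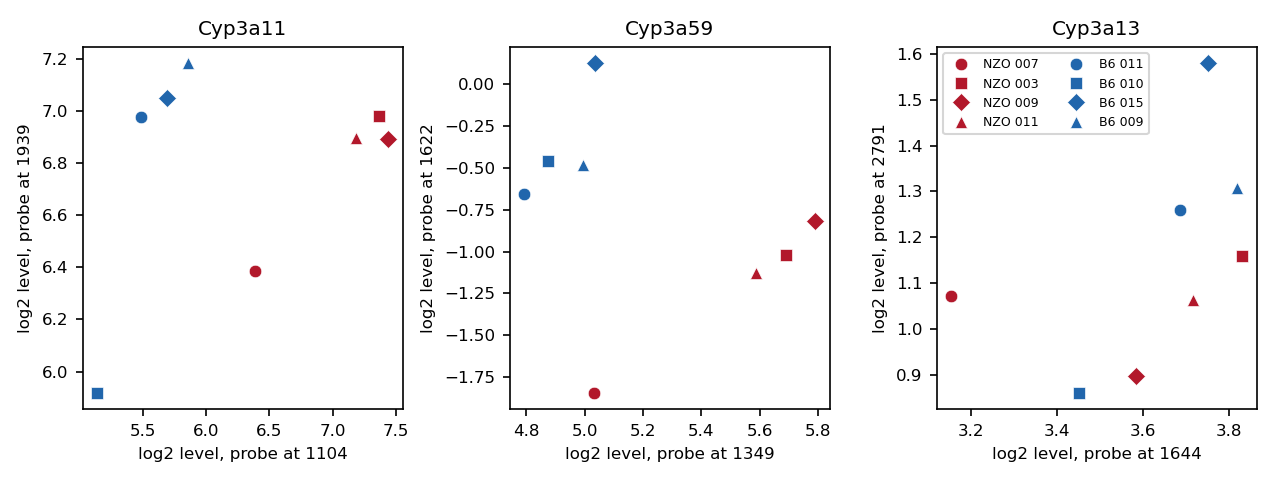
Level at the later probe (vertical axis) against level at the earlier probe (horizontal axis) of the 3 genes with 2 probes, on the log2 scale relative to the array's 75th percentile, 1 point per array (red, NZO; blue, B6). For Cyp3a11 the strains separate along the probe at 1104 and mix along the probe at 1939, for Cyp3a59 NZO lies higher at 1349 except for NZO 007 and lower at 1622, and for Cyp3a13 the strains mix at both.

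Mice of a strain differed in a way common to many of the probes. NZO 007 was the lowest NZO mouse at 10 of the 11 probes, by 0.48 to 0.94 log2 units below the mean of the other NZO mice. Over all probes tested the same deviation had a median of -0.10. B6 010 lay below the mean of the other B6 mice by 1.15 at the Cyp3a11 probe at 1939, by 0.84 at Cyp3a41b and by 0.70 at Cyp3a16, whereas at Cyp3a25 and Cyp3a57 it lay 0.093 and 0.18 above. The summed level of 4 skeletal muscle markers (Ckm, Acta1, Myh4 and Tnnt3) was also highest in these mice, at 4.03 in NZO 007 and 2.46 in B6 010, with -2.43 to -1.37 in the other NZO mice and -1.50 to 0.47 in the other B6 mice. The Myh4 probe gave the largest part of the sum in both. Their part in the Cyp3a levels was not tested. Without NZO 007, 5 probes were called higher, the added one being the Cyp3a59 probe at 1349 with a difference of 0.77. Over all fits that left out 1 mouse the Cyp3a41b difference ranged from 5.30 to 5.62 and that of Cyp3a25 from -0.96 to -0.70.

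**Figure D4:**
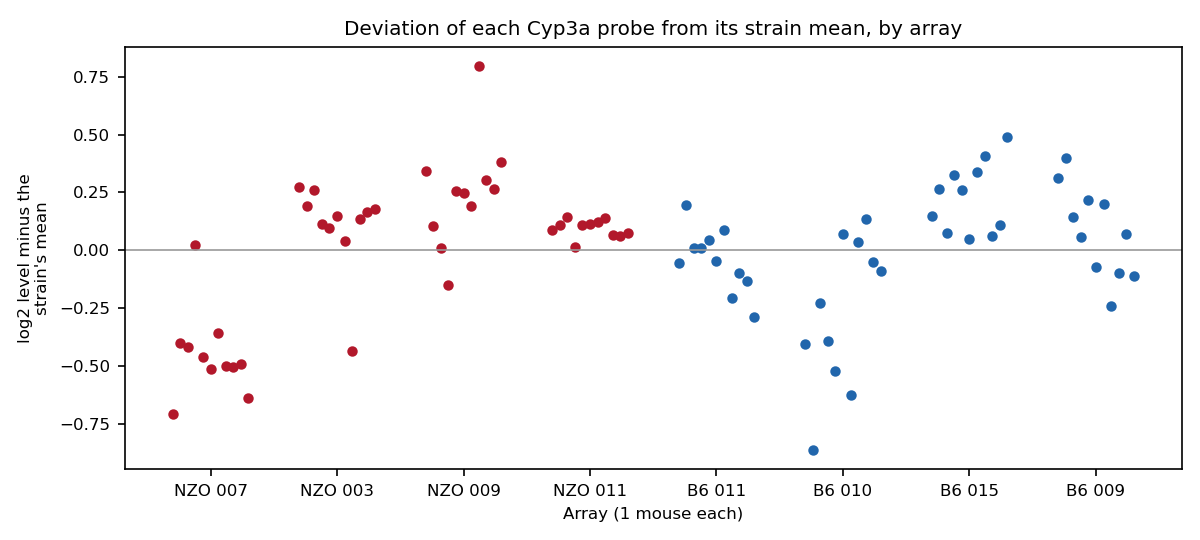
Level of each Cyp3a probe minus the mean of its strain (vertical axis, log2) for each of the 8 arrays (horizontal axis), with the 11 probes of an array in gene order from left to right. In NZO 007 all probes but that of Cyp3a13 at 2791 lie below the strain mean.

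The arrays came from 5 slides scanned on 2 days. Both strains were present on each day and on 1 slide, which held NZO 003, B6 010 and B6 015. The log2 difference of the Cyp3a41b probe was 5.77 within the first day, 5.01 within the second and 5.69 within that slide. For Cyp3a16 these values were 3.13, 2.25 and 3.07, and for Cyp3a25 they were -0.76, -1.33 and -0.78. The second day held only NZO 007 of the NZO mice. In each of the 3 subsets 10 of the 11 probes kept the sign of the whole comparison. The exceptions were the Cyp3a13 probe at 1644 on the first day and on the slide and the Cyp3a11 probe at 1939 on the second day. The slide was scanned on the first day and held all B6 mice of that day. The subsets thus overlap and are parts of the whole comparison, so their signs are a description only.

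The promoters of the 9 genes, read from RefSeq on GRCm38.p6 as 250 bases before to 50 bases after the start that its promoter table gives, fell into sets by sequence. Those of Cyp3a16, Cyp3a41a, Cyp3a41b and Cyp3a44 were 90.3% to 97.0% identical to each other. Those of Cyp3a25, Cyp3a57 and Cyp3a59 were 89.7% to 95.7% identical, and the first set shared 54.0% to 58.1% with the second. The Cyp3a11 promoter was 70.4% to 75.2% identical to the first set, and that of Cyp3a13 at most 57.4% to any member. The probes of the first set were those with the largest values in favour of NZO, and of the second Cyp3a25 and Cyp3a57 were lower in NZO, while the probes of Cyp3a59 went opposite ways. The sets were drawn after the values were known, so no test was made.

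The bases of the window that lie before the outermost start of the gene are shown for 4 of them because they stand for both sets. The start in the promoter table lies inside the gene for 7 of the 9, by 120 bases for Cyp3a57, 26 for Cyp3a25 and 3991 for Cyp3a13, so positions of motifs are not compared between genes. Capitals mark 3 motifs searched on both strands, TATAA, the core of the TATA box, AGTTCA, a half-site of the kind that PXR binds, and TTCNNNGAA, the palindrome of STAT5. TATAA occurred in 8 of the 9 windows, all but that of Cyp3a13, against 24.9% of 32851 mouse promoter windows of the same length. AGTTCA occurred in those of Cyp3a11, Cyp3a41a and Cyp3a41b, against 14.0% of all. TTCNNNGAA occurred in 0 of the 9, against 8.3% of all. Where motifs overlap, the capitals run on.
Cyp3a41b, chr5:145584733-145584980, minus strand: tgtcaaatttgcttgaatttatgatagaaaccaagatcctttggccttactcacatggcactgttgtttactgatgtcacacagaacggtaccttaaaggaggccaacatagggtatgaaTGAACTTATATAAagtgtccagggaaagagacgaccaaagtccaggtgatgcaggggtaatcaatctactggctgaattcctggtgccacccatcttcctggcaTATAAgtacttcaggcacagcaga
Cyp3a44, chr5:145805892-145806124, minus strand: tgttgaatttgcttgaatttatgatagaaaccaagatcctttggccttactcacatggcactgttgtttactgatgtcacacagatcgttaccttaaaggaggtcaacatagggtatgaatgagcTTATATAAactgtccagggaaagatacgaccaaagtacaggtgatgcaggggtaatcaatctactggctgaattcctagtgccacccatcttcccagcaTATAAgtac
Cyp3a25, chr5:146009645-146009868, minus strand: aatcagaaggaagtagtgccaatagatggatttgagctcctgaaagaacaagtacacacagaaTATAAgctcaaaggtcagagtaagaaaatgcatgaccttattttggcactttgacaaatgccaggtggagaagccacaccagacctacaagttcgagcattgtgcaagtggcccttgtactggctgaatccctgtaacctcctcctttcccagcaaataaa
Cyp3a57, chr5:145345019-145345148, plus strand: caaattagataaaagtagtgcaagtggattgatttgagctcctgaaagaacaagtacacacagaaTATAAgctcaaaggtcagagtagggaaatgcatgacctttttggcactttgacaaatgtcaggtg

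In the cluster and within 500 kb on either side lay 53 other RefSeq genes, of which 26 had a probe and 16 were tested. None of the 16 was called by limma with adjustment, none by the test of the study's methods, and 2 had an unadjusted limma p of at most 0.05, none of them past the size limit. Of all probes tested 4.33% were called higher and 5.28% lower, and nothing is read from a count of 0 among 16. The nearest to a call was Cpsf4, a subunit of the mRNA cleavage complex, with a difference of 0.58 (SE 0.11, adjusted p = 0.00783), named after its values were seen. No other gene inside the cluster had a probe.

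Of the transcription factors that govern the Cyp3a genes, CAR was lower in NZO. Its gene Nr1i3 measured 2.56, 2.39, 3.0 and 2.53 in NZO and 3.59, 3.66, 3.41 and 3.84 in B6. It was lower in every NZO mouse than in any B6 mouse, with a difference of -1.01 (SE 0.16, adjusted p = 0.00337), and its second probe was called the same way. PXR (Nr1i2) differed by -0.011 (SE 0.22, adjusted p = 0.981) and its partner Rxra by -0.067 (SE 0.094, adjusted p = 0.688). Hnf4a, the hepatocyte factor needed for basal expression, differed by 0.026 (SE 0.12, adjusted p = 0.912). Of 12 regulators, 11 were tested, 0 were called higher and 1 lower, with a median difference of -0.011. Over all probes tested 4.33% were called higher and 5.28% lower, with a median of 0.014, and 1 of 11 is near these shares. None was higher at an unadjusted limma p of at most 0.05 or by the test of the methods either. Vdr was not well above background on any array. With slide as a fixed term the calls of Nr1i3 and, below, of Hmox1 were lost, with differences of -1.15 and -0.70.

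Among the genes that supply P450 enzymes with electrons and haem, Por, the cytochrome P450 reductase, measured 3.44, 3.39, 3.02 and 3.43 in NZO and 3.81, 3.32, 4.12 and 3.31 in B6. The strains overlapped, with a difference of -0.32 (SE 0.21, adjusted p = 0.354). Hmox1, which breaks haem down, was lower in NZO, with a difference of -0.93 (SE 0.15, adjusted p = 0.00464). Its other tested probe was not called. Hmox1 was the only one of the 8 genes called, and the median difference was -0.26, against the same shares and median of all probes. None of the 8 was called higher by limma or by the test of the methods, and 1 was higher at an unadjusted limma p of at most 0.05.

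Other genes that PXR and CAR induce moved in both directions. Of 19 genes of this list 17 were tested, 2 were called higher and 8 lower, with a median of -0.40. Among the 15 genes above background on all 8 arrays 1 was called higher and 7 lower, with a median of -0.40. The other 2, both called, entered the test through 1 strain alone. Over all probes tested, 4.33% were called higher and 5.28% lower, with a median of 0.014. The higher genes were Cyp2b10, the classical CAR target, and Aldh1a7, an aldehyde dehydrogenase. Cyp2b10 measured 0.14, 1.02, 1.72 and 0.79 in NZO and -6.62, -5.69, -3.52 and -4.59 in B6, where 1 of 4 arrays was above background. Its measured difference was 6.02 (SE 0.64, adjusted p = 4.83e-04), but 2.43 under normexp background correction and 3.15 from the deposited table. It entered the test through NZO alone, and its size is that of values mostly at background in B6. The difference of Aldh1a7 was 1.27 (SE 0.15, adjusted p = 8.33e-04). Cyp2c37, a fatty acid epoxygenase, fell by 3.18 (SE 0.14, adjusted p = 4.43e-06). Cyp2c55, an enzyme of the same subfamily, fell by 3.18 (SE 0.38, adjusted p = 8.30e-04), with NZO above background on 3 of 4 arrays. Cyp2c55 entered the test through B6 alone, and normexp gave -1.09 for it and the deposited table -1.79. The glutathione transferases Gstm2 and Gstm3 fell by 3.07 (SE 0.15, adjusted p = 6.33e-06) and 1.86 (SE 0.11, adjusted p = 1.58e-05). The other 4 called genes fell by 0.70 to 1.25. Cyp2b, Cyp2c and Gstm genes have close relatives, and a probe of 60 bases may read more than 1 of them. With slide as a fixed term 1 gene of the list was called higher and 5 lower, the calls of Cyp2b10 (5.63), Slco1a4, Ces2a and Papss2 being lost, and that of Slco1a4 was also lost by the test of the methods after adjustment. The last 3 of these genes are named after their values were seen.

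Since Cyp3a41 and Cyp3a44 are female-predominant, the other sex-biased genes of the liver were read beside them in these male mice. Of 17 female-biased genes 9 were tested, 4 were called higher and 1 lower, with a median of 1.28, also with genes at background set at their bound, against 4.33% and 5.28% of all probes and their median of 0.014. Of the 4 higher genes, 3 entered the test through NZO alone and so had to differ, and count and median are a description only. Among the 6 genes above background on all 8 arrays 1 was called higher and 1 lower, with a median of 0.69. Hao2, a peroxisomal oxidase of hydroxy acids, measured 0.55, 0.78, 1.55 and 0.68 in NZO and was not above background in any B6 mouse. It was at least 41.8-fold higher in NZO. The fit of the measured values, background included, gave an adjusted p = 7.42e-07. Cyp2b9, a P450 enzyme, and A1bg, a plasma glycoprotein, were at background in B6 too and at least 6.39-fold and 4.24-fold higher in NZO, with an adjusted p = 9.62e-04 and an adjusted p = 2.29e-04 from the same fit of measured values, not of the bounds. Under normexp the log2 differences were smaller than these bounds, with 2.45 for Hao2, 0.78 for Cyp2b9 and 0.72 for A1bg, and from the deposited table they were 3.24, 1.08 and 1.03, and the calls held in both. Prlr, the prolactin receptor, rose by 1.28 (SE 0.21, adjusted p = 0.00410). Cyp2a4, a steroid hydroxylase, fell by 1.29 (SE 0.26, adjusted p = 0.0116). The calls of Cyp2b9, Prlr and Cyp2a4 were lost with slide as a fixed term, at differences of 3.19, 1.05 and -1.57, and that of Cyp2a4 also by the test of the methods after adjustment.

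Male-biased genes were read in the same way. Of 12 tested, 3 were called higher in NZO and 1 lower, with a median of 0.087, against the same shares and median of all probes. Among the 11 genes above background on all 8 arrays 3 were called higher and 0 lower, with a median of 0.091. Cyp4a12a and Cyp4a12b, fatty acid hydroxylases with near-identical sequences, rose by 1.30 (SE 0.16, adjusted p = 0.00115) and 1.32 (SE 0.18, adjusted p = 0.00193). Cspg5, a proteoglycan, rose by 1.76 (SE 0.33, adjusted p = 0.00826). Moxd1, a protein related to copper monooxygenases, fell by 3.85 (SE 0.89, adjusted p = 0.0228), with NZO above background on 3 of 4 arrays. Moxd1 entered the test through B6 alone. This call was lost without B6 011, B6 010 or B6 009 and with no filter on dim probes. The calls of Moxd1 and Cspg5 were lost with slide as a fixed term (-3.21 and 2.25) and by the test of the methods after adjustment. For Moxd1 normexp gave -2.16 and the deposited table -2.84. Among 11 genes of the growth hormone axis, Igf1, the growth factor that the hormone induces, rose by 0.83 (SE 0.11, adjusted p = 0.00184). Igf1 was the only gene of the 11 called. Of all probes tested 4.33% were called higher and 5.28% lower, and nothing is read from 1 of 11. None of the 11 was called lower by limma or by the test of the methods. At an unadjusted limma p of at most 0.05, 5 were higher, 2 of them past the size limit, and none was lower. The median difference was 0.42, against 0.014 over all probes tested. Of 4 tested fetal genes, 1 was called higher and 1 lower, with a median of 0.13, against the same shares and median of all probes. Nothing is read from counts in 4 genes. Afp rose by 0.73 (SE 0.13, adjusted p = 0.00619) and Gpc3, a surface proteoglycan at background in NZO, was at least 1.63-fold higher in B6. Gpc3 entered the test through B6 alone, and its adjusted p = 0.00779 belongs to the measured values, not to the bound. The call of Afp was lost without NZO 009, B6 010 or B6 009 and with the percentile taken over detected probes (0.69). Under normexp and from the deposited table the calls of Afp (0.51 and 0.40) and Gpc3 (-0.060 and -0.39) were lost, that of Gpc3 also by the test of the methods after adjustment, and from the deposited table that of Igf1 (0.61). With slide as a fixed term the calls of Igf1, Afp and Gpc3 were lost at differences of 0.99, 0.80 and -1.92, and the count of the axis stayed at 1 through Socs2, named after its values were seen.

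**Figure D5:**
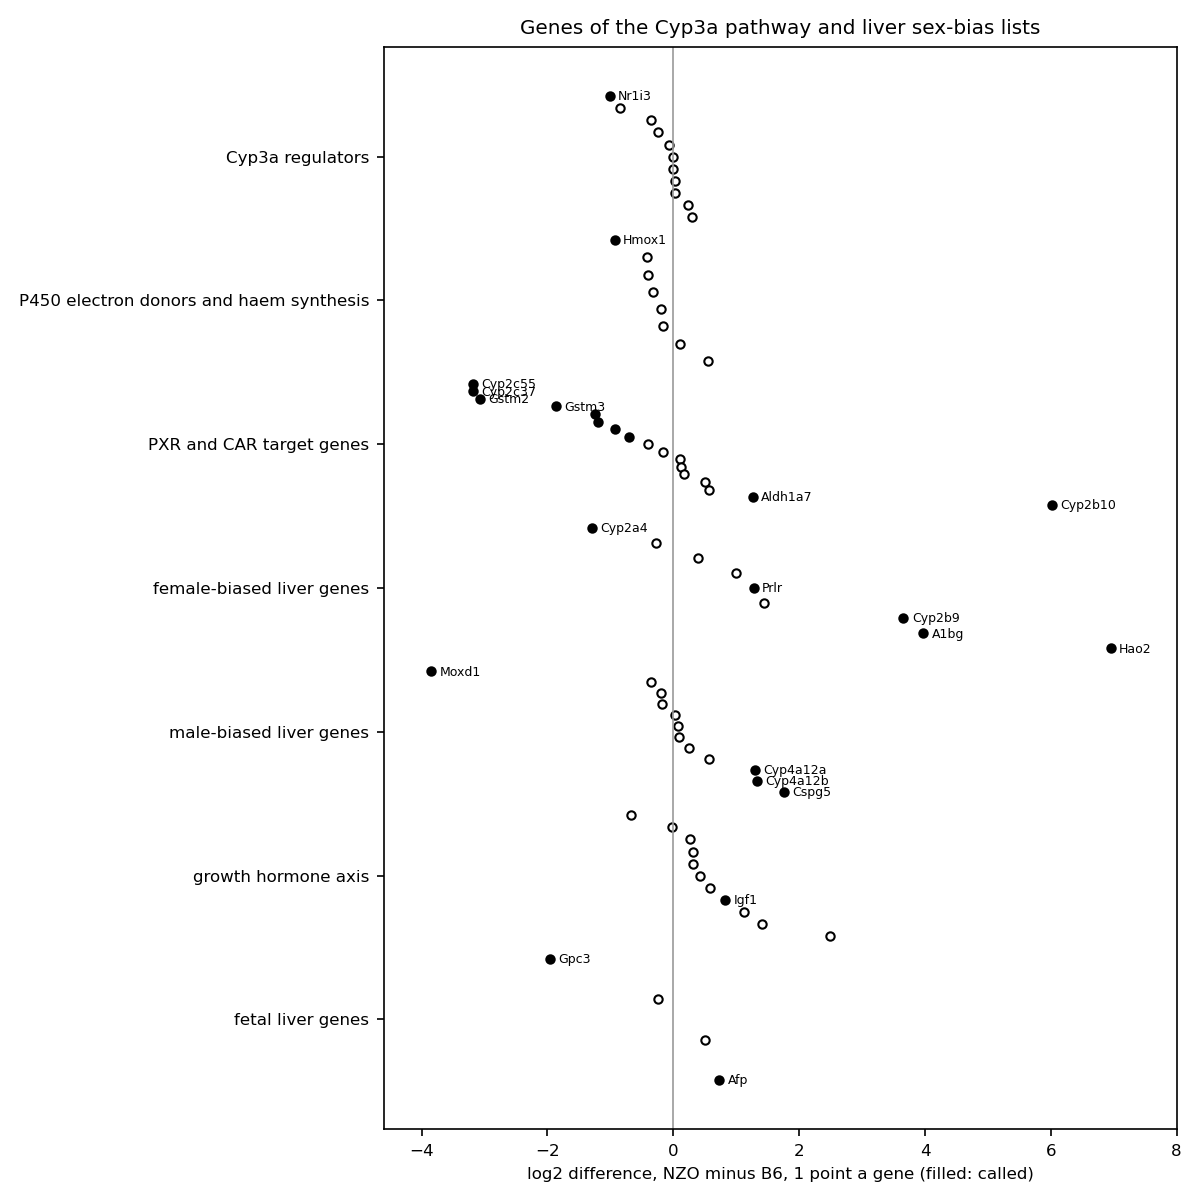
Log2 difference between the strains (horizontal axis, NZO minus B6) of each tested gene of 7 lists around the Cyp3a family (vertical axis), 1 point per gene, filled where called and named by the naming rule. Nr1i3 and Hmox1 are the called genes of the first 2 lists, and the points of Hao2, Cyp2b9, A1bg and Gpc3 are measured differences where 1 strain was at background.

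The liver label held in all samples. The 5 hepatocyte markers (Alb, Ttr, Apoa1, Cps1 and Tat) were above background on all 8 arrays, and none was called by limma or by the test of the methods or had an unadjusted limma p of at most 0.05. Their summed level was 11.9 in each NZO mouse and 11.6 to 11.9 in B6, and the Alb probe gave the largest part of the sum. Adipoq, Plin1 and Lep of adipocytes, Vil1, Lct and Alpi of the small intestine, and Cela3b, Pnlip, Cpa1 and Prss2 of the exocrine pancreas were at background on all arrays. Fabp2 of the small intestine, Cidec, Fabp4 and Car3 of adipocytes, and Cela1 and Ctrb1 of the exocrine pancreas were above it on all 8. None of these was called, and Car3 was higher by 0.47 (adjusted p = 0.0133), under the size limit. Of all probes tested 4.33% were called higher and 5.28% lower, and nothing is read from counts in marker lists this short. Of 4 bile duct markers tested, Spp1 and Sox9 were called lower in NZO, with differences of -0.89 and -1.47. The summed level of the list was 0.77 to 1.35 in NZO and 1.79 to 2.46 in B6, to which the Spp1 probe gave the largest part. Of 4 red blood cell markers tested, Hba-a1 and Alas2 were called higher, by 1.00 and 0.90. The summed level of the list was 8.19 to 8.88 in NZO and 7.28 to 7.70 in B6, to which the Hba-a1 probe gave the largest part. Of 5 leukocyte markers tested, only Itgax was called, lower in NZO, with a difference of -2.04. It was above background on 2 of 4 NZO arrays and entered the test through B6 alone. Ptprc and Cd68 differed by -0.52 and -0.42, and Cd3e and Lyz2 by 0.33 and 0.41. The summed level of the list was 3.44 to 4.23 in NZO and 3.44 to 3.74 in B6, to which the Cd3e probe gave the largest part on 7 of the 8 arrays. All 5 of these marker calls were lost with slide as a fixed term, and those of Spp1, Hba-a1 and Itgax also by the test of the methods after adjustment. The part of these cells in the Cyp3a differences was not tested. The Xist probes were at background on all 8 arrays while Ddx3y and Eif2s3y were above it on all 8. Of the other Y-linked probes, 1 of Uty was above background on all 8 arrays, the other on 2 NZO and 0 B6 arrays, and that of Kdm5d on none.

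Finally, the probes whose pattern over the 8 arrays was most like that of the Cyp3a41b probe were listed as a description. Pearson's r was 0.999 for a probe of an intergenic RNA without a gene symbol, 0.998 for Hddc3, 0.998 for C730037M02Rik, and 0.997 for Banp and a probe with a design name alone. All 8 arrays enter each value, and r is carried by the strains: Hddc3, a phosphohydrolase, lay between 1.12 and 1.55 in NZO and between -2.81 and -2.30 in B6. The strain differences of Hddc3 and Banp, a nuclear matrix protein, were 3.83 and 1.02.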

How the data were processed

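Liver RNA of 8 mice, 4 per strain, was hybridised to 1-colour (Cy3) Agilent arrays. The authors deposited scanner files whose headers name Agilent Feature Extraction 11.0.1.1 (the labels give 9.1), with the processed signal as background-subtracted intensity, and a table of intensity values that equalled the raw median intensity for 59305 of 59305 spots on each array.

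Processed intensity was taken as log2 minus the 75th percentile of the array. Spots of controls were removed, as were those the scanner software called outliers (96 to 137 on an array), no spot was saturated, spots of a probe were averaged and probes were kept separate. Between 50.4% and 60.1% of spots were well above background, and 27639 of 55681 probes were tested, those above it on all 4 arrays of a strain. The strains were compared with limma 3.58.1 in R 4.3.3 without a block. Called means a Benjamini-Hochberg adjusted p of at most 0.05 and a log2 difference of at least 0.7. The size limit is that of the study's methods, whose test, a t-test with Welch correction at an unadjusted p, was an alternative. A gene of a list was read by its brightest probe. The fit was tested on simulated data.

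Named were every Cyp3a probe, up to 6 called genes per list by size, Nr1i2, Nr1i3, Rxra, Hnf4a and Por, and the 5 probes most like the lead probe. The members and lists were chosen with earlier results of these data known. Of the listed genes, 4 matched no probe and 1 is not reported here. Alternatives were the background correction, normalization, scaling, filter, slide, scan day, replicate block, the test and leaving out each mouse. The normexp correction used an offset of 50. The probe sequences are those of the array design, and NZO sequence was not analysed here. Sequences were handled with Biopython and figures drawn with matplotlib. The number of mice limits the precision. The p-values weigh the strain difference against the spread between these mice, which limma moderates over all probes.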

Additional observations from a re-analysis of the deposited data

Results flagged for a closer look

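Of 70 groups of 4 arrays, those of the 11 Cyp3a probes and the named genes in each strain, 4 had 1 array far from the other 3, where chance gives about 1 in 20. At the Cyp3a11 probe at 1939, NZO 007 lay at 6.39, below the other NZO mice, and B6 010 at 5.92, below the other B6 mice. Mouse B6 009 stood apart at Cyp4a12a, with 4.96 against lower values in its strain, and NZO 009 at Por, with 3.02 against higher values.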

How the results depend on the processing

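Of the whole comparison 1198 probes were called higher and 1460 lower in NZO. Normexp background correction gave 615 and 583, the deposited table as given 575 and 1421, slide as a fixed term 497 and 984, the methods' t-test with adjustment 831 and 890, the same at an unadjusted p, added after seeing the data, 1291 and 1609, and leaving out 1 mouse 1055 to 1219 and 1221 to 1464. The share of higher calls was 45.1%, with 28.8% from the deposited table, whose values are not scaled between arrays and put the median of all probes at -0.15, and 33.6% with slide as a fixed term. The table's Cyp3a differences of 5.08 (Cyp3a41b), 3.85 (Cyp3a44) and -1.15 (Cyp3a25) include that shift. The table's values also hold the background of the arrays, which was not subtracted. The mouse numbers are shared by 2 pairs of mice and did not pair them (correlations of deviations -0.26 and -0.0041), and the fit with the replicate block called 72 probes higher and 134 lower, with few degrees of freedom.

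Of the Cyp3a probes 4 were called higher, 4 to 5 when a mouse was left out, and 3 with the replicate block, which did not call the Cyp3a11 probe at 1104. The 2 called lower were called in all leave-one-out fits (2 to 2), and 0 were called with slide as a fixed term, the replicate block or the methods' t-test with adjustment. At an unadjusted p of at most 0.05 these gave 3, 2 and 3 lower probes, of which 3, 0 and 3 were past the size limit, and the deposited table, the percentile over detected probes and scan day as a fixed term called 3. List genes called higher numbered 11, and 6 with slide as a fixed term, 2 with the replicate block and 10 to 12 when a mouse was left out. Those called lower numbered 13, and 5, 0 and 10 to 13, where the replicate block gave 15 at an unadjusted p. The replicate block ended the calls of all named list genes but Hao2 and Cyp2b10. Of 480 values of 24 named genes under the alternatives, 434 kept their side of the threshold and 46 lost it. No called gene reversed its sign. Uncalled genes could change sign, as Hnf4a did from 0.026 to -0.20 in the deposited table. The cause of these changes was not tested.

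Of the Cyp3a probes, that of Cyp3a44, at background in B6, varied most, with 3.09 under normexp, 6.04 with slide as a fixed term and 7.39 with the replicate block. Cyp3a41b was 5.12 under normexp, Cyp3a57 -0.69 with the replicate block, the Cyp3a59 probe at 1622 -0.42 under normexp and -0.40 with the block, and the Cyp3a11 probe at 1939 0.50 with slide as a fixed term. No called Cyp3a probe reversed. With 4 mice per strain, low signals such as those of Cyp3a44 in B6 are limited by the background of the arrays.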
